A study of Sus scrofa and Rattus norvegicus with 8 samples.

Results

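The genes that supply glycerol 3-phosphate to the adipocyte, those that acylate it stepwise to triglyceride, and the glycerol channel of fat were examined in pig backfat. They were chosen by symbol as GPD1, PCK1, PCK2, AQP7, GPAM, GPAT3, AGPAT2, LPIN1, DGAT1 and DGAT2, and 9 of these 10 genes had an Ensembl ID and values, among 14844 named nuclear genes and 25880 IDs in all. AQP7, the channel through which adipocytes release glycerol, could not be matched to an ID by symbol and was not analysed here. The values came from the upper layer of backfat (subcutaneous fat) of 6 adult female Bama pigs, each 2-year-old and each 1 library (replicates 1 to 6). All 6 pigs formed a single group for which no treatment is named, so no comparison between conditions was possible. Rat pools of the same series were not used.

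Fat stores energy as triglyceride, in which glycerol carries fatty acids on each of its hydroxyl groups. Adipocytes make the backbone, glycerol 3-phosphate, from glycolysis through glycerol 3-phosphate dehydrogenase (GPD1) or, when glucose is short, from pyruvate through phosphoenolpyruvate carboxykinase (PCK1 in the cytosol, PCK2 in mitochondria), a route known as glyceroneogenesis. GPAM and GPAT3 then add the first acyl chain, AGPAT enzymes the next, the lipins remove the phosphate, and DGAT1 or DGAT2 adds the last chain to diacylglycerol.

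Transcription was measured in TPM (transcript abundance corrected for transcript length, on a fixed total per library), so levels can be compared between genes, but TPM keep no read counts and the depth of the libraries is unknown. Named nuclear genes held 24.1% to 26.3% of the TPM in replicates 1, 2, 3 and 6, but 3.34% in replicate 4 and 4.73% in replicate 5. Levels are therefore given as rescaled TPM, for which the named nuclear genes of a library were set to sum to 1000000. For GPD1, PCK1, GPAM, LPIN1 and DGAT2, values as deposited are given too, in full or in part. Rescaling multiplied a library by 3.80 to 4.15, except replicates 4 (29.9) and 5 (21.1). Adipocyte markers were present in every library (6 of the 8 listed had an ID). Their geometric mean was 1652 to 2385 rescaled TPM and their sum 17985 to 34724. The single markers did not move together, as FABP4 was highest (28926) and LIPE lowest (423) in replicate 5. The libraries are bulk tissue, in which fewer cells of a type and less RNA per cell cannot be told apart.

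The 250 bases before the RefSeq gene start (Sscrofa11.1) are shown for DGAT2 and DGAT1 and for PCK1 and PCK2, since each pair catalyses the same reaction and their levels are set against each other below. Each is written 5′ to 3′ on the strand of its gene, and capitals mark matches, on either strand, to 6 motifs. These were the E-box (CACGTG), the CCAAT box (CCAAT), the TATA box (TATAAA), the core of the cAMP response element (ACGTCA), the nuclear receptor motif (AGGTCA) and the GC box (GGGCGG).
DGAT2 (chr9:10031913-10032162, plus strand): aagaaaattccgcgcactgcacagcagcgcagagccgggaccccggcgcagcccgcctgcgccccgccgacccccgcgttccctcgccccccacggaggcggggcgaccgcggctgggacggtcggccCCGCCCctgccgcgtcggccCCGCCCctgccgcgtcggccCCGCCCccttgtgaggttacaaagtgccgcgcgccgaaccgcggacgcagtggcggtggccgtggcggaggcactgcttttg
DGAT1 (chr4:452640-452889, plus strand): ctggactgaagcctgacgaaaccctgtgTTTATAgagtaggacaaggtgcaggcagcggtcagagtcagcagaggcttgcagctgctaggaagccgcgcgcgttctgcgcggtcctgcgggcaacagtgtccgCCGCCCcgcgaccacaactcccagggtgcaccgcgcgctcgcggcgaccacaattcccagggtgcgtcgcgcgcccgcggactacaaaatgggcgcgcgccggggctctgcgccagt
PCK1 (chr17:57930257-57930506, plus strand): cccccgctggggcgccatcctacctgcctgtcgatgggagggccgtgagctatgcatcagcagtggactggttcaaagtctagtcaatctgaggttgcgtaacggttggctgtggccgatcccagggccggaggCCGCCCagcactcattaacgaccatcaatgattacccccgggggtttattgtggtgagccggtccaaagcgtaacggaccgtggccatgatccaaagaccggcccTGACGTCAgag
PCK2 (chr7:75197614-75197863, minus strand): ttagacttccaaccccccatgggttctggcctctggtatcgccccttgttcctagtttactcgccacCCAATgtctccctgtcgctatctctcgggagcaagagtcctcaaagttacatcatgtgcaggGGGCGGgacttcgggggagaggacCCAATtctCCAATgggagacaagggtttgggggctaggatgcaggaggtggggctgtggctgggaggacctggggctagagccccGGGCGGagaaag
DGAT2 held 3 GC boxes, 20 bases apart from each other. DGAT1 held 1 GC box and 1 TATAAA match, the latter 222 bases before the start. PCK1 held 2 matches to ACGTCA that overlap, 1 on each strand, beginning 11 and 9 bases before the start, and 1 GC box. PCK2 held 3 CCAAT and 2 GC box matches. A GC box was found before 7 of the 10 genes and before 44.4% of the 20664 protein-coding genes searched, CCAAT before 1 of 10 (31.97%), TATAAA before 1 of 10 (10.4%), ACGTCA before 1 of 10 (6.65%), AGGTCA before 2 of 10 (GPD1 and AQP7, 12.3%) and CACGTG before 0 of 10 (6.16%). No gene of the annotation lay in the DGAT2, DGAT1 and PCK2 windows, while that of PCK1 overlapped the annotated gene LOC110257401. The matches describe these windows only.

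All 9 genes with values were detected at over 0.1 TPM in every library, as were 67.2% of the named nuclear genes. Their mean levels ranged from 6.65 rescaled TPM for PCK2 to 743 for DGAT2. The median over the 9 genes was 24.1 rescaled TPM, beside 16.7 over all named nuclear genes, and 5.44 vs. 3.30 in TPM as deposited. The median gene was PCK1, and without replicate 2, in which PCK1 was highest, the median was 13.0.

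**Figure D1:**
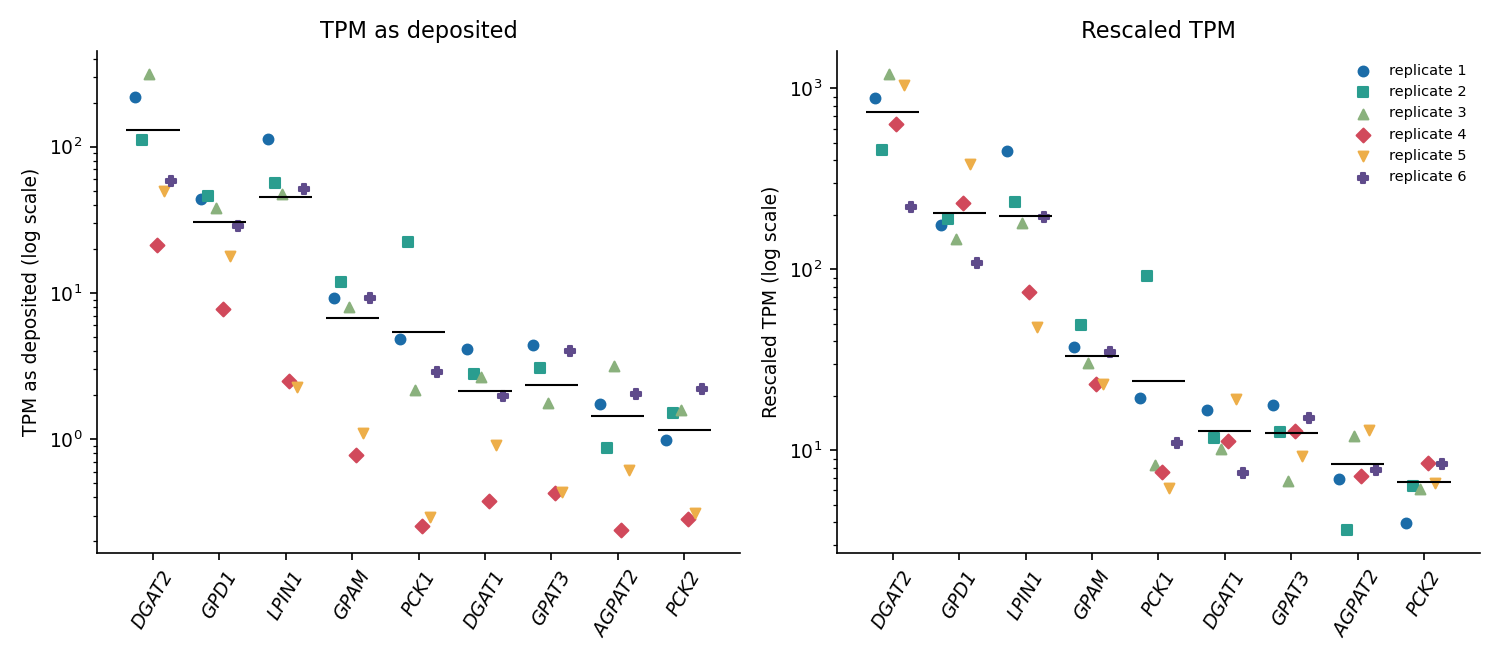
Each point is a library, each colour and marker a replicate, and each black line the mean over the 6 pigs; the left panel shows TPM as deposited and the right panel rescaled TPM, both on log axes. On the left replicates 4 and 5 are the lowest points of all 9 genes; on the right they are both lowest for LPIN1, GPAM and PCK1 and both highest for GPD1.

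The supply of glycerol 3-phosphate was examined first. GPD1 (ENSSSCG00000000214; chr5:16008179-16021676, 9 exons), which reduces dihydroxyacetone phosphate to glycerol 3-phosphate, had the second highest mean of the genes in rescaled TPM, while LPIN1 was second as deposited and without replicates 4 and 5. It had 175, 191, 146, 233, 381 and 109 rescaled TPM in replicates 1 to 6 (mean 206 ± 95.4, SD, n = 6), and 43.7, 46.0, 38.3, 7.78, 18.0 and 28.7 TPM as deposited. It was thus highest in replicates 4 and 5 on the rescaled scale and lowest in them as deposited. Without replicates 4 and 5 its coefficient of variation (CV, its SD over its mean) was 0.232, vs. 0.463 with them. Exons of GPD1 share 549 bases with a protein-coding gene model on the same strand and 352 bases with a noncoding RNA on the other, so its level may hold reads of these.

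PCK1 (ENSSSCG00000007507; chr17:57930507-57936523, 10 exons), the cytosolic enzyme of glyceroneogenesis, differed most between the pigs. It had 19.4, 92.2, 8.24, 7.58, 6.20 and 10.9 rescaled TPM in replicates 1 to 6 (mean 24.1 ± 33.7, SD, n = 6), and 4.84, 22.2, 2.16, 0.253, 0.294 and 2.87 TPM as deposited. Replicate 2 was 4.77-fold above the next library, and the other 5 libraries had a mean of 10.5 ± 5.26 (SD, n = 5). The CV of 1.40 was above that of 99.9% of the 8866 named nuclear genes with a mean of at least 10 rescaled TPM, and it was 0.503 without replicate 2. PCK2 (ENSSSCG00000002009; chr7:75187195-75197613, 10 exons), the mitochondrial form, had 3.98, 6.31, 6.08, 8.55, 6.60 and 8.40 rescaled TPM (mean 6.65 ± 1.69, SD, n = 6). Its CV of 0.254 was the lowest of the 9 genes, and replicate 2 was within the range of the others.

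PCK1 is also strongly transcribed in liver and kidney, so markers of these and other tissues are given beside it, all in rescaled TPM. The 7 liver markers summed to 120, 1066, 413, 1213, 1391 and 70.8 rescaled TPM in replicates 1 to 6. On this scale their sum was high in replicate 2, where PCK1 was highest, and higher still in replicates 4 and 5. PCK1 was lowest in those 2 libraries, with 7.58 and 6.20 vs. 8.24 in replicate 3. Rescaling multiplied replicates 4 and 5 by 29.9 and 21.1, but replicate 2 by 4.15. As deposited, the liver sum was thus highest in replicate 2, like PCK1. The geometric mean of the liver markers was 48.5 rescaled TPM in replicate 2, 51.6 in replicate 4, 48.3 in replicate 5 and 5.20 to 18.9 elsewhere. APOH and TTR were highest in replicate 2, and the other liver markers in replicate 4 or 5. Albumin (ALB) made up most of the liver sum, with 47.6 to 1091 rescaled TPM. APOA2, 1 of the 7 markers, was listed at 0 in a library (replicate 6). The 6 kidney markers summed to 28.8, 6.08, 4.34, 1.53, 1.81 and 25.9, highest in replicates 1 and 6, and 4 of the 6 (UMOD, SLC12A1, SLC34A1 and AQP2) were at 0 in at least 1 library. Among the endothelial markers, 4 of 5 with an ID were highest in replicate 2, and their sum was 1407 there vs. 644 to 1201 in the other libraries. Of the 2 skeletal muscle markers with an ID, ACTA1 was highest in replicate 2 (6.36 vs. at most 1.51 rescaled TPM), and the sum of both was 8.19 there vs. 0.688 to 3.80. Of the 6 macrophage markers, CD68 alone was highest in replicate 2 (80.7 vs. at most 65.0). The macrophage sum was 459 there vs. 215 to 599 in the other libraries. Of the 4 blood markers, the leukocyte genes PTPRC (113 vs. at most 74.2) and CD3E (4.51 vs. at most 2.27) were highest there. HBB and ALAS2 were highest in replicate 4. The share of all named nuclear genes that were highest in replicate 2 was not computed, so these counts have no background. The part of other cell types in the PCK1 level was not tested.

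**Figure D2:**
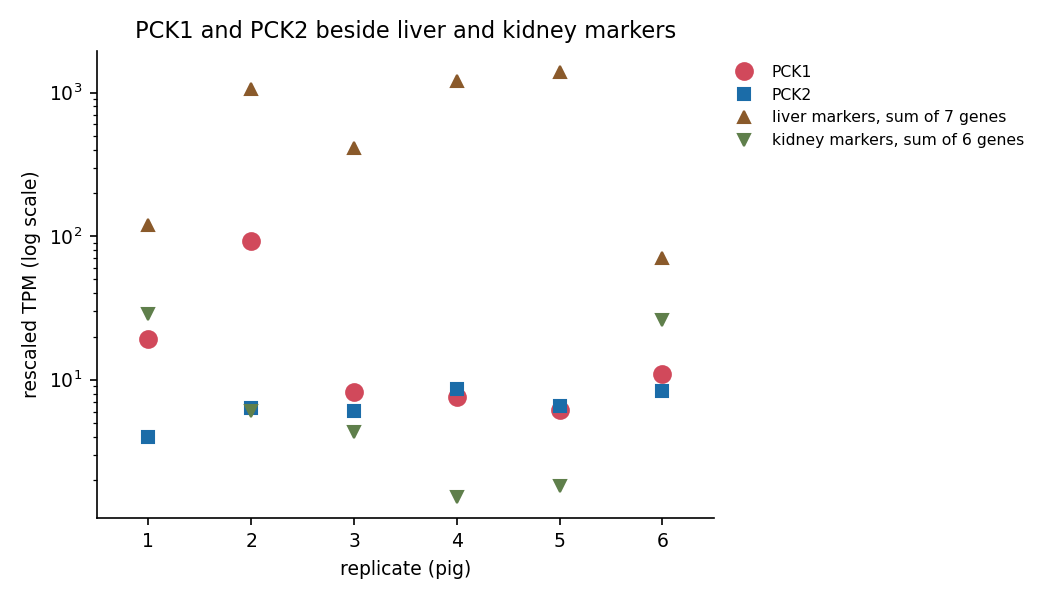
Rescaled TPM on a log axis for PCK1, PCK2 and the summed liver and kidney markers in each of the 6 pigs. PCK1 reaches 92.2 in replicate 2 and 6.20 to 19.4 elsewhere, PCK2 stays between 3.98 and 8.55, and the liver sum is highest, from 1066 to 1391, in replicates 2, 4 and 5.

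The first acylation was examined next. GPAM (ENSSSCG00000010631; chr14:122538600-122582390, minus strand, 22 exons), the mitochondrial glycerol 3-phosphate acyltransferase, had 37.2, 49.3, 30.5, 23.3, 23.3 and 35.0 rescaled TPM in replicates 1 to 6 (mean 33.1 ± 9.79, SD, n = 6). As deposited, replicates 4 and 5 had 0.777 and 1.10 TPM and the other libraries 7.99 to 11.9. GPAT3 (ENSSSCG00000009233; chr8:134912493-135002140, minus strand, 13 exons), an acyltransferase of the endoplasmic reticulum, had 17.7, 12.7, 6.80, 12.8, 9.27 and 15.1 rescaled TPM (mean 12.4 ± 3.92, SD, n = 6). GPAM was lower in replicates 4 and 5 than in every other library, whereas for GPAT3 they lay within the range of the others.

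AGPAT2 (ENSSSCG00000040845), which adds the second acyl chain and whose loss in humans causes congenital lipodystrophy, was found on a scaffold without a chromosome (positions 1095782 to 1106471, 6 exons). Its level was 6.94, 3.63, 12.1, 7.18, 12.9 and 7.77 rescaled TPM in replicates 1 to 6 (mean 8.42 ± 3.49, SD, n = 6), lowest in replicate 2 and highest in replicates 3 and 5. LPIN1 (ENSSSCG00000008624; chr3:124940557-125074137, minus strand, 21 exons), the phosphatidate phosphatase that yields diacylglycerol, had 449, 234, 180, 75.2, 48.2 and 193 rescaled TPM (mean 197 ± 143, SD, n = 6). LPIN1 was the second most variable of the 9 genes, with a CV of 0.726 that exceeded that of 97.8% of the genes set beside it. Replicate 1 was highest and replicates 4 and 5 were lowest, also as deposited (2.51 and 2.28 vs. 47.2 to 112 TPM). Without both, its CV was 0.473.

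DGAT2 (ENSSSCG00000034102; chr9:10032163-10066082, 9 exons), 1 of the enzymes of the last step, was the most transcribed gene of the group and ranked 144 among all named nuclear genes. It had 881, 457, 1208, 639, 1049 and 221 rescaled TPM in replicates 1 to 6 (mean 743 ± 372, SD, n = 6), and 220, 110, 316, 21.4, 49.6 and 58.3 TPM as deposited. Replicate 6 was lowest on the rescaled scale, and replicates 4 and 5 lay within the range of the others. DGAT1 (ENSSSCG00000005918; chr4:452890-463665, 16 exons), which shares no close sequence relation with DGAT2, had 16.7, 11.7, 10.2, 11.3, 19.2 and 7.48 rescaled TPM (mean 12.8 ± 4.34, SD, n = 6). Like DGAT2 it was lowest in replicate 6. Exons of DGAT1 and HSF1, on the opposite strand, share 135 bases.

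Few neighbours in the order of mean levels kept their order in each pig. Of the 8 pairs of neighbours, DGAT2 was above GPD1 and LPIN1 above GPAM in all 6 libraries. GPD1 was above LPIN1 in 2 of 6 libraries, GPAM above PCK1 in 5 of 6, PCK1 above DGAT1 in 3 of 6, DGAT1 above GPAT3 in 2 of 6, GPAT3 above AGPAT2 in 4 of 6 and AGPAT2 above PCK2 in 3 of 6. The levels from GPAM down to PCK2 thus overlapped between neighbours.

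Genes of the same step were then compared within each library, as the log2 ratio of rescaled TPM with 1 added to each value, by a two-sided exact sign-flip permutation test over the 6 libraries. Such a test cannot give a p below 0.03125, and p-values were adjusted over 7 pairs by Benjamini-Hochberg. DGAT2 was above DGAT1 in 6 of 6 libraries, by 36.2-fold to 52.0-fold in replicates 1, 2, 4 and 5, 108-fold in replicate 3 and 26.2-fold in replicate 6 (mean log2 ratio of DGAT1 to DGAT2 -5.61 ± 0.68, SD; exact permutation p = 0.03125, adjusted p = 0.0365). GPAM was above GPAT3 in 6 of 6 libraries by 1.76-fold to 4.04-fold (log2 ratio 1.36 ± 0.48; exact permutation p = 0.03125, adjusted p = 0.0365). GPAT4, another acyltransferase of the endoplasmic reticulum with 147 to 374 rescaled TPM, was above GPAM in 6 of 6, by 2.94-fold to 15.4-fold (log2 ratio of GPAM to GPAT4 -2.73 ± 0.86; exact permutation p = 0.03125, adjusted p = 0.0365). The GPAT4 to GPAM ratio was largest in replicates 4 and 5, where it was 15.4-fold and 10.6-fold.

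At the next step another gene of the same reaction was more transcribed than AGPAT2. AGPAT1, a ubiquitous enzyme of the same reaction, had 747, 695, 1549, 252, 202 and 763 rescaled TPM in replicates 1 to 6 (mean 701 ± 485, SD, n = 6) and was above AGPAT2 in 6 of 6 libraries. The excess was 87.1-fold to 150-fold in replicates 1, 2, 3 and 6, 31.0-fold in replicate 4 and 14.5-fold in replicate 5 (log2 ratio of AGPAT2 to AGPAT1 -5.99 ± 1.30; exact permutation p = 0.03125, adjusted p = 0.0365). LPIN1 was above LPIN2, a related lipin, in 6 of 6 libraries, by 16.0-fold in replicate 1 and 2.00-fold in replicate 5 (log2 ratio 2.53 ± 1.05; exact permutation p = 0.03125, adjusted p = 0.0365). LPIN2 itself stayed between 21.7 and 31.2 rescaled TPM, so the range of this ratio came mainly from LPIN1. GPD1 was above GPD1L, a related dehydrogenase, in 6 of 6 libraries by 2.34-fold to 4.62-fold (log2 ratio 1.67 ± 0.35; exact permutation p = 0.03125, adjusted p = 0.0365). PCK1 and PCK2 did not pass the test, with PCK1 higher in 4 of 6 libraries and a log2 ratio of 1.03 ± 1.52 (exact permutation p = 0.125, adjusted p = 0.125), which was 0.50 without replicate 2. The remaining pairs written down, GPD1 with GK and AQP7 with AQP3, had no value because GK and AQP7 had no ID. These ratios compare transcripts and rest on the gene models used for the TPM. Overlaps with other gene models were not examined for AGPAT1, GPAT4, LPIN2 and GPD1L.

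**Figure D3:**
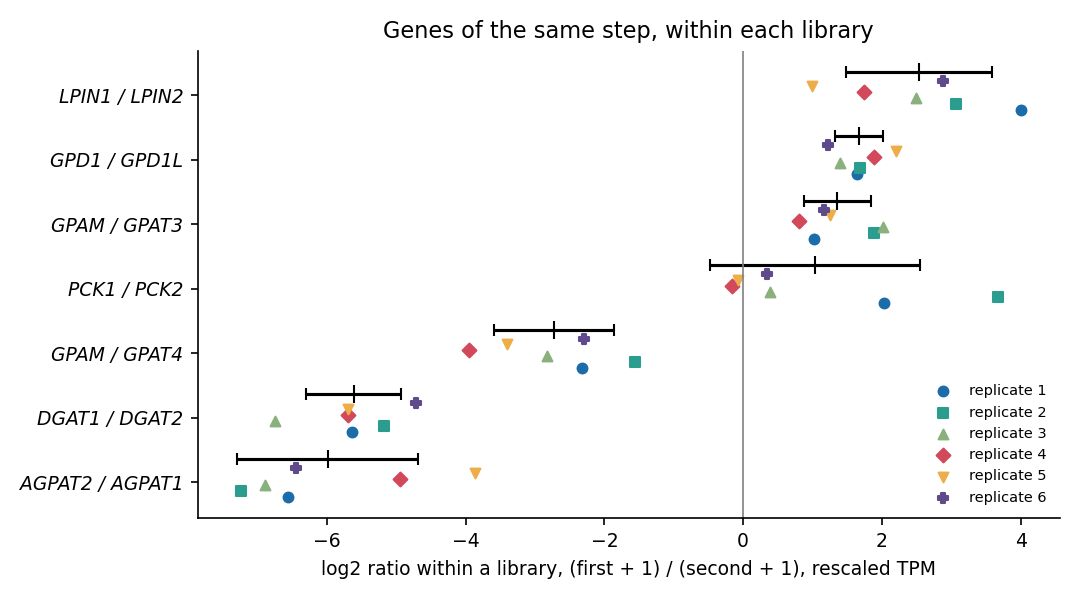
Log2 ratio of rescaled TPM, 1 added to each value, for 7 pairs of genes of the same step; points are the 6 libraries, and the black bar above them is the mean ± SD. The points of 6 pairs lie on 1 side of 0, with DGAT1 / DGAT2 and AGPAT2 / AGPAT1 farthest from it, while PCK1 / PCK2 crosses 0 in replicates 4 and 5.

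The spread between pigs was then set beside that of all genes. The median CV of the 9 genes was 0.414 on the rescaled scale, beside 0.282 over the 8866 named nuclear genes with a mean of at least 10 rescaled TPM, and 8 of the 9 were above that value, although 2 of the 9 (AGPAT2 and PCK2) had a lower mean than this. Beside the 12130 genes with a mean of at least 1, whose median CV was 0.327, 6 of the 9 were above, and GPAM, GPAT3 and PCK2 were below. The median was 0.463 over the 7 genes with a mean of at least 10, and 0.740 in TPM as deposited for all 9. Without replicates 4 and 5 the median CV was 0.357 for the 9 genes and 0.161 for the genes set beside them. A single library stood apart from the other 5 by Dixon's ratio for 1 of the 9 genes, PCK1, on the rescaled scale, while this was so for 4.83% of 12130 named nuclear genes with a mean of at least 1.

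**Figure D4:**
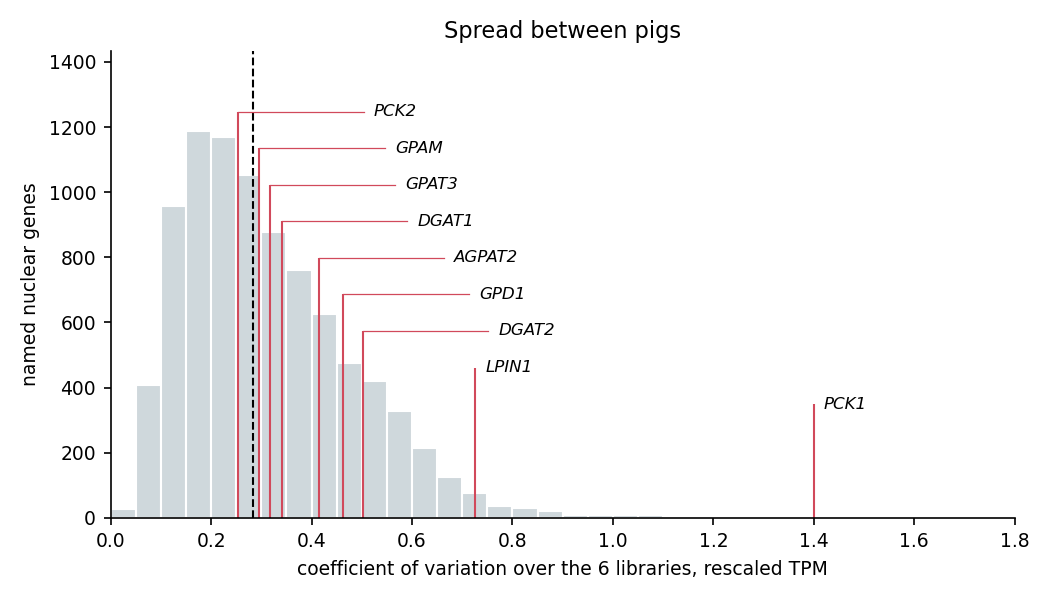
Grey bars count named nuclear genes with a mean of at least 10 rescaled TPM by their coefficient of variation over the 6 pigs, the dashed line is their median (0.282), and red lines are the 9 genes of triglyceride synthesis and glycerol supply. PCK2 (0.254) is left of the median, and LPIN1 (0.726) and PCK1 (1.40) lie in the right tail.

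Replicates 4 and 5 were both above the other 4 libraries for 1 of the 9 genes (GPD1) and both below for 3 (LPIN1, GPAM and PCK1) on the rescaled scale. Over 12130 named nuclear genes with a mean of at least 1, 10.4% were above and 50.1% below in this way. The direction depended on the scale. As deposited, all 9 genes were below and 0 above, beside 98.2% and 0.0742% of the same genes. After median-centring DGAT1, GPAT3, AGPAT2 and PCK2 were above (32.5% of genes) and LPIN1 and GPAM below (35.7% of genes). After quantile normalization GPD1, DGAT1 and PCK2 were above (27.4% of genes) and LPIN1 below (25.8% of genes). LPIN1 alone of the 9 genes was below on all 4 scales, and the share of all genes below on all 4 was not computed.

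The ratio of each pair of the 9 genes within a library was then compared across the pigs. Over the 36 pairs the SD of the log2 ratio across libraries had a median of 0.92. It was smallest for GPD1 and DGAT1 (0.36), both of which were highest in replicate 5 and lowest in replicate 6, and their ratio ranged over 0.93 on the log2 scale. By the root mean square difference of log2(rescaled TPM + 1), centred on each gene's mean, 1.85% of 8865 named nuclear genes followed GPD1 more closely than DGAT1 did, and 2.76% followed DGAT1 more closely than GPD1 did. The SD was 0.48 for GPAM and GPAT3, the next pair, whose ratio ranged over 1.20, and 57.5% of genes followed GPAM more closely than GPAT3 did and 28.4% followed GPAT3 more closely than GPAM did. The SD was largest for PCK1 and AGPAT2 (1.91) and for DGAT2 and PCK1 (1.87), and 1.64 for GPD1 and LPIN1, which had opposite places in replicates 4 and 5.

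Genes with the most similar pattern over the 6 pigs were listed for the 7 genes with a mean of at least 10 rescaled TPM, by the same root mean square difference. For GPD1 they were NUDT7, a peroxisomal hydrolase (0.098), and ACACA, which makes malonyl-CoA for fatty acid synthesis (0.137). ACACA had 173, 169.5, 165, 273, 362 and 110 rescaled TPM in replicates 1 to 6, and like GPD1 it was highest in replicate 5, next in replicate 4 and lowest in replicate 6. For DGAT2 they were EPDR1 (0.380) and ELOVL6, a fatty acid elongase (0.424), and like DGAT2 both had their lowest level in replicate 6. For LPIN1, SSBP3 (0.258) was among them and was likewise lowest in replicate 5. For GPAM they were the chromatin proteins CBX5 (0.049) and SMCHD1 (0.060). PCK1 was nearest to HSP70.2 (0.401) and NR4A3 (0.427), an inducible heat shock gene and an inducible nuclear receptor, which had 1275 and 103 rescaled TPM in replicate 2 and at most 244 and 38.6 elsewhere. For DGAT1 they were SORD (0.154) and APOA1 (0.156), and for GPAT3 FAM200C (0.109) and SEMA3E (0.126). All these genes were picked for likeness over the same 6 libraries, so shared highest and lowest replicates follow from the choice. These are descriptions over 6 libraries, of which replicates 4 and 5 differed from the others in composition.

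Other genes of the pathway were taken from a list of 25, of which 20 had an ID (GPAT2, MOGAT1, MOGAT2, GK and MPC1 had none). Their median was 59.9 rescaled TPM and their median CV 0.317, with 11 of 20 above the 0.282 of genes with a mean of at least 10 and 10 of 20 above the 0.327 of genes with a mean of at least 1. The 5 highest were PC (pyruvate carboxylase, 1389 ± 474, SD, n = 6), PDK4 (a kinase that restrains pyruvate dehydrogenase, 1100 ± 449), AGPAT1 (701 ± 485), MPC2 (a subunit of the mitochondrial pyruvate carrier, 350 ± 183) and GPAT4 (228 ± 81.1). PC, which makes the oxaloacetate that PCK1 and PCK2 use, was thus far above both of them. PC was 687 to 1853 rescaled TPM and PDK4 528 to 1788, and neither had the peak of PCK1 in replicate 2 (1250 and 1392 there). Replicates 4 and 5 were both above the others for 5 of the 20 and both below for 9 of the 20 (10.4% and 50.1% of all genes), and 18 of 20 were detected in every library (67.2% of all genes). The exceptions were FITM1, over 0.1 TPM in 3 libraries, and AQP10, over it in 4.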

How the data were processed

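RNA of the backfat of 6 pigs was depleted of ribosomal RNA and sequenced from stranded libraries by the authors, who deposited gene-level TPM from kallisto 0.43.0 (Sscrofa11.1, per the labels' processing notes). Symbols were joined by Ensembl ID and named 14857 of 25880 IDs (57.4%), of which 13 were mitochondrially encoded and left out of rescaling. Rescaling, means, CVs and ratios were computed here with Python 3.11.15, numpy 2.4.6, pandas 2.3.3 and scipy 1.17.1, with a pseudocount of 1 on the log2 scale, and the code was tested on simulated data. The genes and lists were chosen with earlier results of these data known. Named genes were all members, pathway genes of a tested pair or of the 5 highest means, and the 2 nearest patterns of each gene with a mean of at least 10, of which 1 is not reported here; FITM1, AQP10 and single marker genes were named after their values were seen. Other marker lists (stromal, macrophage, blood and skeletal muscle) were summed too: stromal markers gave 9580 to 28201 rescaled TPM (6 of 6 with an ID), macrophage 215 to 599 (6 of 6), blood 176 to 1018 (4 of 4) and skeletal muscle 0.688 to 8.19 (2 of 6). Positions, exons of the longest transcript and sequences came from RefSeq on Sscrofa11.1, matched by symbol for all 10 genes. The study describes 6 pigs and the labels number 6 replicates, with no batch given. Alternatives were other scales, pseudocounts and thresholds, and leaving out libraries. The rat table was not used.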

Additional observations from a re-analysis of the deposited data

Results flagged for a closer look

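Of 19 sets of 6 values examined for a library far from the others, 2 had one, both of PCK1 and both in replicate 2. On the rescaled scale replicate 2 had 92.2 rescaled TPM and the other libraries 6.20 to 19.4 (Dixon's ratio 0.847, above the critical value for 6 samples), and as deposited it had 22.2 TPM and the others 0.253 to 4.84 (ratio 0.792). Both scales share the same libraries, and chance flags about 1 in 20 sets of this size. Liver, kidney and endothelial marker sums of the same library are given with the PCK1 values, and their part was not tested.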

How the results depend on the processing

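Depth limits these results in a way the files cannot show, since TPM keep no counts. The median level of the 9 genes was 24.1 rescaled TPM, and 5.44 as deposited, 3.91 after median-centring and 4.49 after quantile normalization, which are other units by construction. Leaving out 1 library gave 13.0 to 27.7, the lowest without replicate 2. The median CV was 0.414, vs. 0.740 as deposited and 0.63 after median-centring, and 0.310 to 0.443 with 1 library left out. At over 1 TPM, 3 in place of 9 genes were detected in every library. Replicates 4 and 5 were both above the others for 1 gene on the rescaled scale, 0 as deposited, 4 after median-centring and 3 after quantile normalization, and both below for 3, 9, 2 and 1 genes in that order, with the cause not tested. The shares of all genes were 10.4%, 0.0742%, 32.5% and 27.4% above and 50.1%, 98.2%, 35.7% and 25.8% below in the same order. The median CV of the genes set beside them was 0.282, 0.327 with a mean of at least 1 in place of 10, and 0.161 without replicates 4 and 5. The 6 pairs of genes that passed the test kept their direction with a pseudocount of 0.1 or none, with TPM as deposited and without each library in turn or replicates 4 and 5 together, and the 5 or 4 libraries left allow no p below 0.0625 or 0.125. No paired analysis was possible because the pigs form a single group, and the replicate numbers they share with the rat pools tie no animals together.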
